A study of Homo sapiens with 2 samples.

Results

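Input chromatin is the sheared, crosslinked DNA of a ChIP-seq experiment that never meets an antibody, and it serves as the control for the antibody library. The regions described here are all 344 peaks that the deposited input list holds on chromosomes 1 to 22 and mitochondrial DNA. They were taken by chromosome alone, without regard to score. The whole input list has 401 peaks, of which 57 lie on X or Y and were not taken, and the input and SOX9 lists together hold 7948 peaks. The cells were VCaP, an established human prostate cancer line with the TMPRSS2-ERG fusion and high SOX9 levels without induction, grown in DMEM with FBS. One library was made with an antibody against SOX9, a transcription factor that binds DNA through an HMG box, and one from input DNA. There is thus 1 library per group, no replicate error can be measured, and no p-value is given.

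Peaks have a position in genome build hg18 and a score of unstated meaning and scale. Scores are compared within a list only, and where input and SOX9 scores stand side by side each is on the scale of its own list. Shares carry exact Clopper-Pearson 95% intervals and medians carry exact 95% intervals from order statistics. Both cover only the error of counting independent peaks, so they are too narrow where peaks lie in groups. The read depth is unknown, and chromosome copy numbers of VCaP were not analysed.

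Human centromeres are built of long tandem arrays of alpha satellite DNA, flanked by other satellites and by segmental duplications. In hg18 most of this sequence is missing, and each centromere is written as a gap without bases, continued on some chromosomes by a gap for heterochromatin. Only the outermost repeats on either side of a gap are part of the build. A repeat that is present in many copies in a cell but in few copies in a build collects reads from all of its copies, and mitochondrial DNA is likewise present in many copies per cell. These are general properties of ChIP-seq controls. The repeat content under the present peaks was not analysed, and no sequence is printed because no hg18 genome was used.

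Input peaks were concentrated beside the centromere gaps. Of the 336 nuclear input peaks, 197 lay within 1 Mb of the gap of their chromosome, a share of 58.6% (interval 53.2 to 63.9%). Among the 7437 SOX9 peaks on the same chromosomes the share was 0.834% (62 peaks, interval 0.640 to 1.07%). The median distance to the gap was 0.55 Mb for input peaks and 34.1 Mb for SOX9 peaks. The 197 peaks were divided evenly over the sides, with 101 toward the short arm and 96 toward the long arm. Neighbouring input peaks are not independent, so neighbours separated by no more than 12.5 kb were joined into 134 nuclear regions, of which 56 (41.8%, interval 33.3 to 50.6%) lay within 1 Mb of a gap.

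The concentration reached to the edge of the gaps. Within 100 kb of a gap lay 123 input peaks (36.6%) and 9 SOX9 peaks (0.121%). Within 10 kb there were 45 input peaks (13.4%, interval 9.94 to 17.5%) on 13 chromosomes and 0 SOX9 peaks, which at 0 of 7437 leaves an upper bound of 0.0496%. Input peaks were found within 1 kb of the gap on 7 chromosomes. The nearest on chromosome 20 ended 35 bp before the gap, and that on chromosome 8 ended 72 bp before it. On chromosomes 16, 5 and 18 the nearest input peak began 95, 148 and 153 bp past the gap, on chromosome 4 it ended 326 bp before it, and on chromosome 11 it ended 965 bp before it. On 18 of the 22 autosomes the nearest input peak was closer to the gap than the nearest SOX9 peak. The gap positions were entered from general knowledge and not read from the build, and these distances rest on them.

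**Figure D1:**
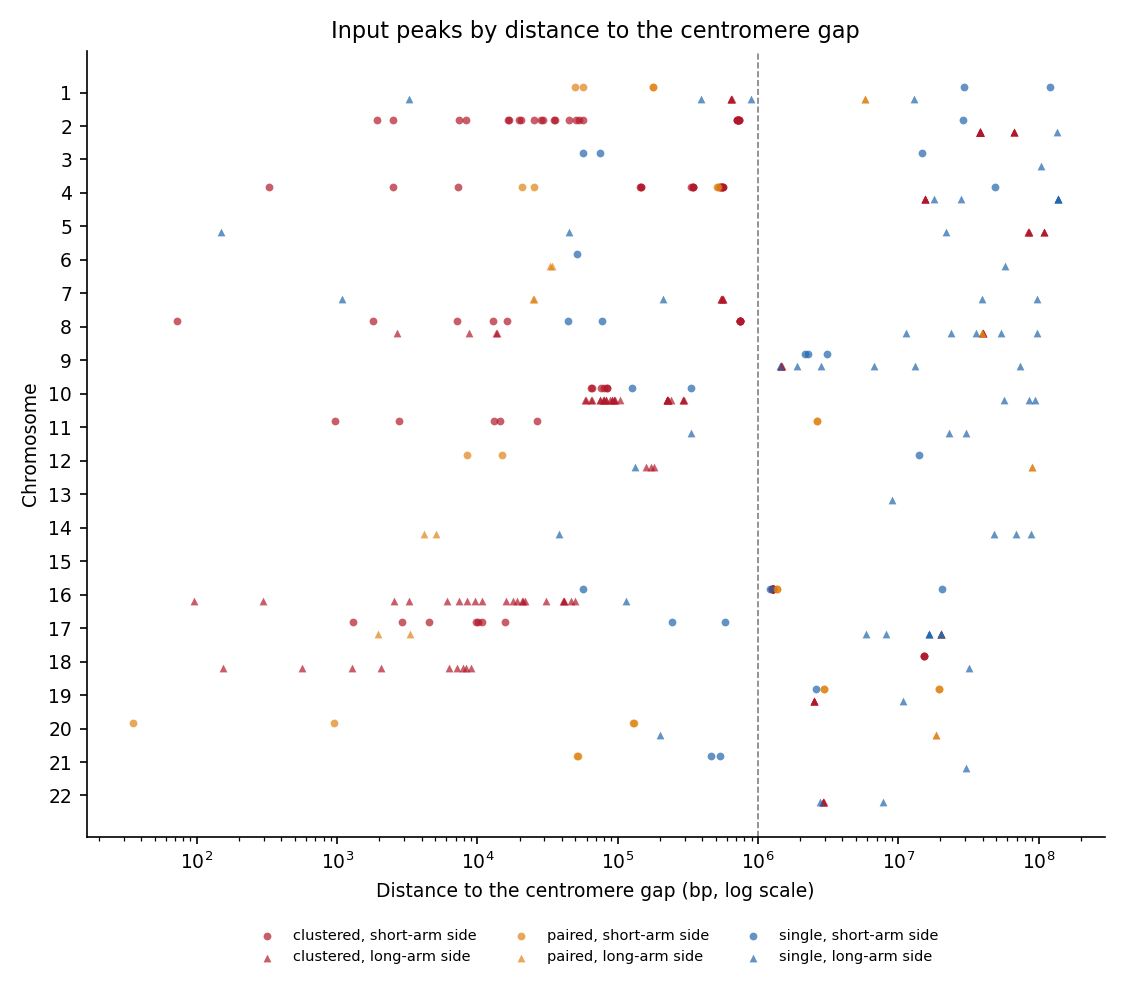
Each point is 1 nuclear input peak, placed by its distance to the centromere gap (x axis, bp, log scale) and its chromosome (y axis). Colours give the class, circles lie toward the short arm and triangles toward the long arm, and 197 of the 336 peaks are left of the dashed line at 1 Mb.

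Chromosomes differed in which side of the gap carried the peaks. Chromosome 2 had 26 peaks within 1 Mb on the short-arm side and 0 on the long-arm side, and chromosome 4 had 22 and 0. Chromosome 10 had 8 on the short-arm side and 29 on the long-arm side, chromosome 16 had 1 and 22, and chromosome 18 had 0 and 9. Chromosome 8 had 13 and 4. The peaks of 1 side came from few clusters, so these are not counts of independent positions. Chromosomes 2, 10, 16 and 4, picked as the 4 with the most input peaks, held 48, 40, 36 and 34 of the 344 peaks. Together that is 45.9% of them. Of the SOX9 peaks the same chromosomes held 6.33%, 4.24%, 2.08% and 3.85%. After joining of input peaks, they held 6, 9, 7 and 14 regions of 135.

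On 5 of the 22 autosomes no input peak lay within 1 Mb of the gap. Chromosome 15 had no input peak at all, and the only one on chromosome 13 was 9.06 Mb from the gap. Chromosomes 9, 19 and 22 instead carried 11, 8 and 5 peaks at 1 to 5 Mb. On chromosome 19 neither list had a peak between positions 24318150 and 32423743, a stretch of 8.11 Mb around the gap. A single input peak ended directly before this stretch, with a score of 12.2, and a cluster of 5 began directly after it (32423744 to 32430550) with scores from 5.03 to 74.4. On chromosome 9 the corresponding stretch without peaks of either list was 20.9 Mb long, and the nearest input peak was 1.43 Mb from the gap. If the peak-free stretch of chromosome 19 is taken as its gap, the share within 1 Mb becomes 61.0%. The edges of that stretch are set by these same input peaks, so the peaks directly beside it and this rise follow from its definition.

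**Figure D2:**
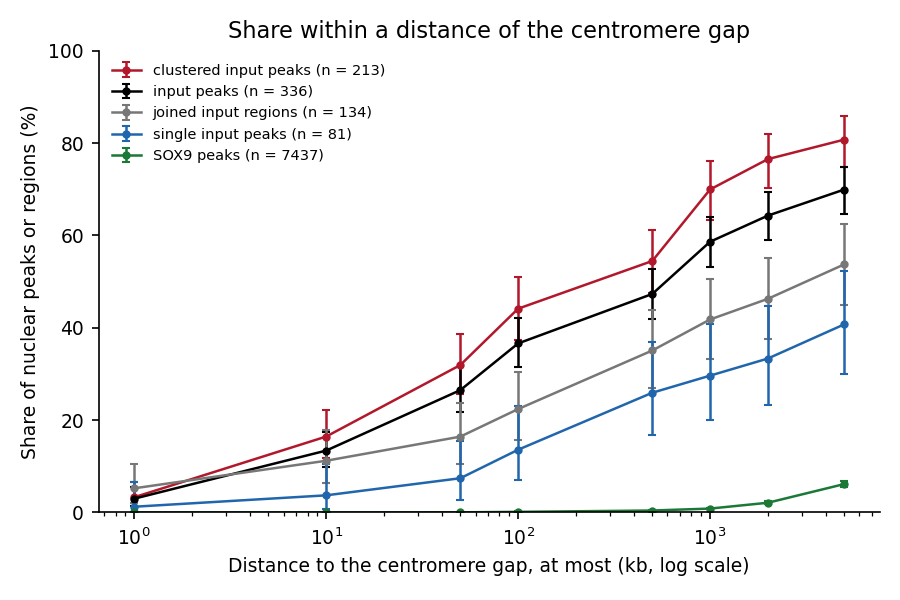
The share of nuclear peaks or joined regions (y axis, percent) that lie within a given distance of the centromere gap (x axis, kb, log scale). Error bars are exact 95% intervals; at 1000 kb clustered input peaks reach 69.95%, single input peaks 29.6% and SOX9 peaks 0.834%.

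Most input peaks lay in clusters, that is, in runs of at least 3 peaks whose gaps did not exceed 12.5 kb. Of the 344 peaks, 221 (64.2%, interval 58.9 to 69.3%) were clustered, 42 formed 21 pairs and 81 (23.5%) had no neighbour within that distance. In the SOX9 list 13.8% of peaks were clustered (1025 of 7445). Besides the mitochondrial group of 8 there were 32 nuclear clusters with 213 peaks, on 15 chromosomes. They held 3 to 21 peaks, 8 of them exactly 3, and spanned 1.08 to 55.2 kb with a median of 12.97 kb. The peaks filled a median of 10.3% of the cluster's length, and 87 of the 181 gaps between cluster neighbours (48.1%) were shorter than 1 kb. Of the 32 clusters, 20 lay within 1 Mb of a gap, 4 at 1 to 5 Mb, 1 at a chromosome end and 7 elsewhere. A larger share of clustered than of single peaks lay beside the gaps. Within 1 Mb lay 149 of 213 nuclear clustered peaks (69.95%, interval 63.3 to 76.03%), 24 of 42 paired peaks (57.1%, interval 41.0 to 72.3%) and 24 of 81 single peaks (29.6%, interval 19.99 to 40.8%).

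The 9 nuclear clusters of 8 or more peaks held 115 peaks, 54.0% of all nuclear clustered peaks, and 7 of them were within 1 Mb of a gap. The largest, with 21 peaks over 49.7 kb of chromosome 16 (44943398 to 44993125), began 95 bp past the heterochromatin gap of the long arm. Its scores ran from 6.09 to 47.5 with a median of 25.9, the highest median of the 9. The cluster of 18 peaks on chromosome 10 (41683383 to 41728412) lay 58.4 kb past the gap and scored 6.52 to 45.5 with a median of 13.9. A further cluster of 8 peaks followed on the same arm (41849307 to 41864751), with scores between 10.1 and 29.1. These long-arm clusters of chromosome 10 stood apart from its short-arm side, where a single cluster of 6 was found.

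On chromosome 2 a cluster of 17 peaks (91632797 to 91687987) ended 1.91 kb before the gap. It was the longest of all, at 55.2 kb, and it contained both weak and strong peaks, from 4.55 to 71.2 with a median of 20.1. A cluster of 9 peaks on the same arm (90960555 to 90977607) lay 712 kb from the gap and scored 7.03 to 32.2. The chromosome 4 cluster of 8 peaks (48788566 to 48817929) lay 537 kb from the gap, with scores from 4.48 to 40.6. Chromosome 18 had the most compact of the large clusters, 9 peaks within 9.33 kb (16765050 to 16774376) that began 153 bp past the gap and covered 24.0% of that length. Its scores were 9.27 to 37.9.

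The other 2 large clusters were farther from a gap. One lay 1.26 Mb from the gap on the short arm of chromosome 16 (33857666 to 33882979) and held 9 peaks with scores from 4.91 to 28.5. The other held 16 peaks over 38.3 kb of the long arm of chromosome 2 (132712778 to 132751105), 38.0 Mb from the gap, with scores from 5.83 to 33.7 and a median of 11.8. The long arm of chromosome 2 is known to carry the remnant of an ancestral centromere, left by the fusion of a pair of ape chromosomes. Whether this cluster coincides with the remnant was not analysed here.

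**Figure D3:**
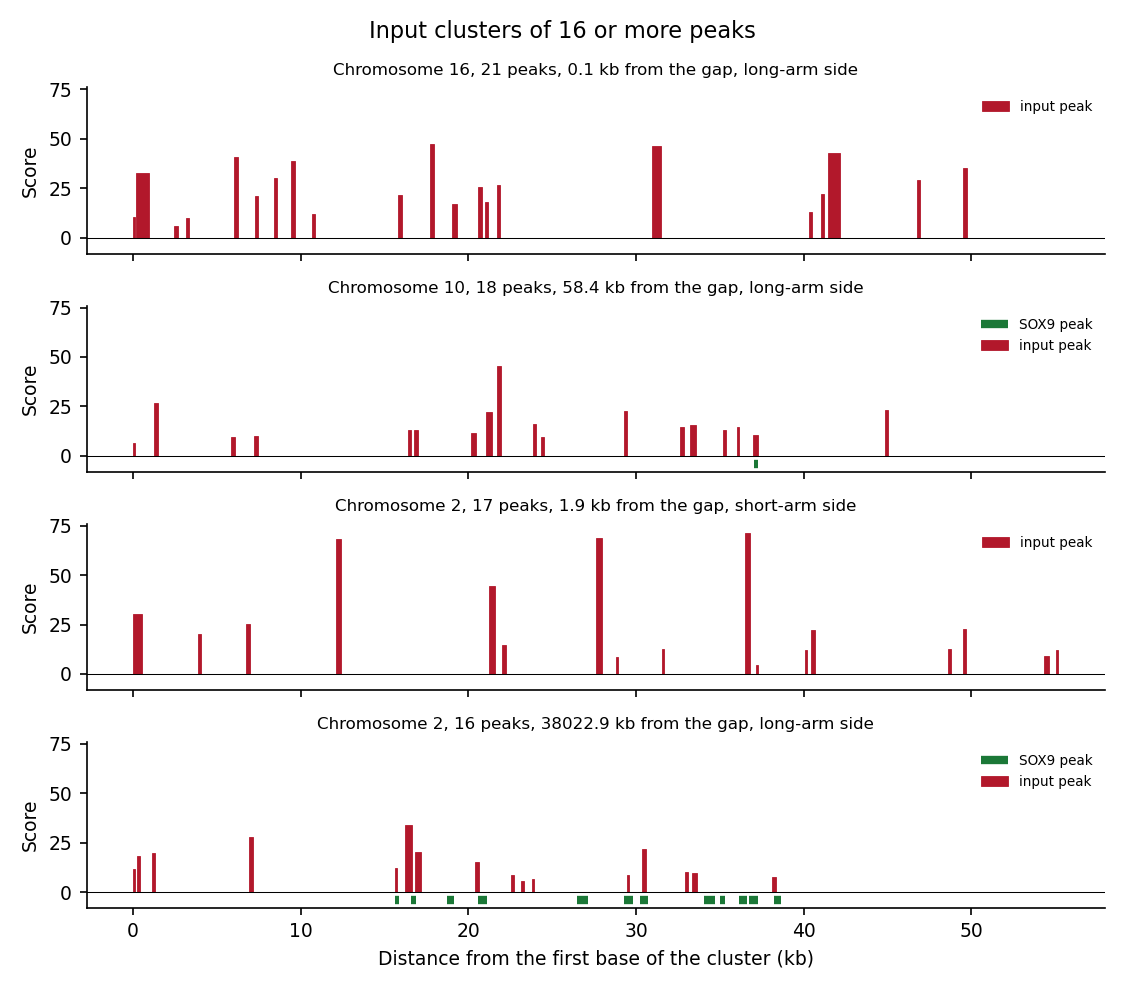
The 4 nuclear input clusters of 16 or more peaks, with distance from the first base of the cluster (x axis, kb) and the score of each input peak in the input list (y axis, red bars as wide as the peak). Green bars under the axis mark SOX9 peaks by position only; there are 12 in the second cluster of chromosome 2, 1 on chromosome 10 and none in the other panels.

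Clustered and single peaks had similar middle scores and differed at the top. The median score was 15.8 for clustered peaks (interval 13.6 to 17.2), 14.5 for paired peaks (interval 10.99 to 19.3) and 15.3 for single peaks (interval 12.2 to 22.5). The direction of the small difference between clustered and single peaks depended on 1 cluster. Without the largest cluster, on chromosome 16, clustered peaks had a median of 14.8, which is below that of single peaks. The upper quartile was 25.7 for clustered and 37.4 for single peaks. Of the 34 highest-scoring peaks, which all scored at least 47.99, 17 were single and 13 clustered. That is 20.99% of single peaks (interval 12.7 to 31.5%) and 5.88% of clustered peaks (interval 3.17 to 9.85%). The share was 9.52% for paired peaks (interval 2.66 to 22.6%) and 9.88% over all members.

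Widths were close as well. The median was 215 bp for clustered peaks (interval 202 to 222 bp), 206 bp for paired peaks (interval 177 to 230 bp) and 233 bp for single peaks (interval 196 to 249 bp). The narrowest width in the list, 138 bp, was shared by 12 of 221 clustered, 5 of 42 paired and 4 of 81 single peaks, and so by 21 of all 344. At least 500 bp were reached by 13 clustered, 1 paired and 5 single peaks, and so by 19 of all 344. Of the 13 clustered ones, 10 were nuclear and the others mitochondrial. Score and width were correlated across peaks in each class, with Spearman's rho of 0.58 over 221 clustered, 0.74 over 42 paired and 0.67 over 81 single peaks. These are peaks of 1 library and not replicates.

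Single peaks had a lower median score beside the gaps than away from them, while for paired peaks the order was the opposite. The 24 single peaks within 1 Mb of a gap had a median score of 9.77 (interval 6.75 to 15.5), and only 1 of them (4.17%) was among the 34 highest. The 57 single peaks farther away had a median of 20.1 (interval 13.4 to 34.2), and 16 of them (28.1%) were among the 34, against 9.88% of all members. The intervals of these medians overlap. Single peaks beside the gaps were also narrower, with a median width of 182 bp (interval 147 to 222 bp) against 249 bp (interval 230 to 285 bp). Paired peaks had a median score of 15.8 within 1 Mb (24 peaks, interval 11.6 to 34.97) and 11.5 farther away (18 peaks, interval 6.32 to 19.3), with overlapping intervals, and the 4 paired peaks among the 34 highest all lay within 1 Mb. Their median width was 229.5 bp near and 192 bp far. Clustered peaks had close median scores, with 16.1 within 1 Mb (149 peaks, interval 14.04 to 17.2) and 16.3 farther away (64 nuclear peaks, interval 10.6 to 20.4). Their median width was 206 bp near (interval 196 to 219 bp) and 231 bp far (interval 211 to 268 bp).

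**Figure D4:**
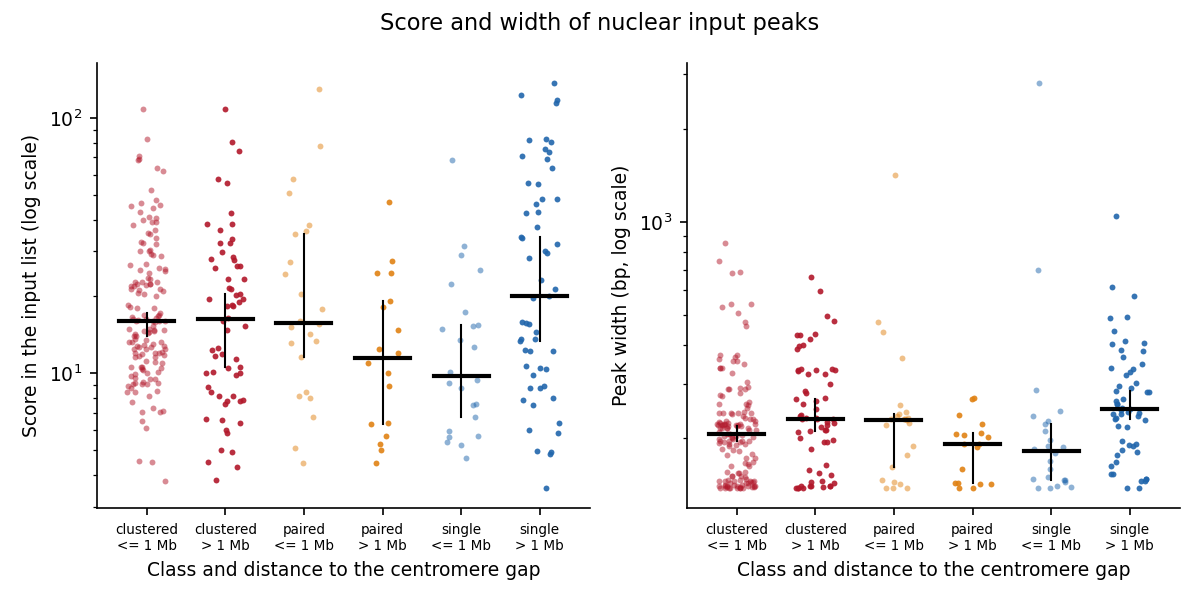
Score in the input list (left, log scale) and width (right, bp, log scale) of the 336 nuclear input peaks, by class and by distance to the centromere gap (at most 1 Mb or more). Each point is a peak, thick bars are medians and thin bars their exact 95% intervals; single peaks more than 1 Mb away have the highest median score, 20.1.

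Of the 10 highest-scoring peaks 6 were single, and 3 lay within 1 Mb of a gap. Among the 34 highest, 17 were single, 13 clustered and 4 paired. Over all members, 23.5% were single, 64.2% clustered and 12.2% paired, and 57.3% lay within 1 Mb of a gap. The maximum, 137, was a single peak of 294 bp on chromosome 6 (119600188 to 119600481), 57.7 Mb from the gap. Other single peaks of this set were on chromosome 1 (91625308 to 91625797, score 123), chromosome 11 (84872598 to 84872943, score 117) and near the start of chromosome 1 (559662 to 559918, score 114). Those on chromosome 1 at 154452803 to 154453293 and on chromosome 5 at 71182429 to 71182764 scored 82.6 and 81.9. Beside the gaps, the pair on chromosome 1 included a peak of 1418 bp (121185596 to 121187013) with a score of 130. The chromosome 7 peak of 852 bp (61606218 to 61607069) scored 109, while the other 5 peaks of its cluster scored 7.06 to 21.1. The last members of the set were a peak of the chromosome 18 cluster described next (98036 to 98533, score 109) and one on chromosome 17 (22185593 to 22185834, score 82.6) that ended 1299 bp before the gap.

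The widest input peak, 2805 bp of chromosome 6 (58884452 to 58887256), was single, scored 68.5 and ended 50.9 kb before the gap. The next were mitochondrial peaks of 1773 and 1510 bp, the 1418 bp peak of chromosome 1 and a single peak of 1041 bp on chromosome 17 (38755651 to 38756691, score 14.5). Each of these 5 was overlapped by a SOX9 peak. Of all input peaks, 79.4% were narrower than 300 bp.

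Away from the gaps, most input peaks lay in the chromosome arms. More than 5 Mb from a gap and more than 1 Mb from a chromosome end were 88 peaks, 26.2% of the nuclear input peaks (interval 21.6 to 31.2%), in 51 joined regions on 21 chromosomes. Of the nuclear SOX9 peaks 89.7% lay there. The 88 comprised 38 single, 12 paired and 38 clustered peaks, and their median score of 15.9 (interval 12.2 to 23.1) was close to the 15.2 (interval 13.6 to 16.5) of peaks within 1 Mb of a gap.

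Within 1 Mb of a chromosome end, and more than 5 Mb from a gap, lay 13 peaks on 7 chromosomes. That is 3.87% of nuclear input peaks (interval 2.08 to 6.53%), against 4.13% of nuclear SOX9 peaks (interval 3.69 to 4.61%). Of these 10 were single, and 5 were on chromosome 4. The remaining 3 formed the cluster on chromosome 18 (98036 to 99590), about 98.0 kb from the start of the chromosome. It had scores of 109, 38.6 and 55.5, and its peaks filled 85.4% of its length. The chromosome 4 peaks were weak, with scores of 5.86 at 19.2 kb from the start and 8.73, 8.02, 4.85 and 7.83 within 841 kb of the end.

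The 8 mitochondrial peaks covered 33.6% of the span from position 35 to 16519. The strongest was the first, at 35 to 1033 with a score of 37.8, which includes part of the control region where mitochondrial replication begins. The next in score, 1773 bp wide (2049 to 3821), reached 18.3, and the last in position, 1510 bp wide (15010 to 16519), reached 11.8. The other 5 scored 10.4, 2.71, 1.43, 4.45 and 3.47 in order of position. The lowest score of all 344 peaks, 1.43, was thus mitochondrial. The group's median was 7.44 (interval 1.43 to 37.8, its whole range) and the nuclear median 15.4 (interval 14.04 to 16.8). The first interval contains the second, so 8 peaks do not settle their order.

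The last comparison asked which input peaks were also covered by a SOX9 peak. Of the 344 input peaks, 36 shared at least 1 bp with a SOX9 peak, a share of 10.5% (interval 7.44 to 14.2%). The shared length ranged from 40 to 1238 bp with a median of 296 bp, and 16 of the 36 input peaks lay wholly inside a SOX9 peak. The 36 fell into 21 of the 135 joined regions, on 15 nuclear chromosomes and mitochondrial DNA. No source used here states whether input reads entered the calling of SOX9 peaks, and such calling would itself change this number.

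A smaller share of the input peaks beside the centromere gaps was overlapped than of those farther away. Of the 197 input peaks within 1 Mb of a gap, 6 were overlapped (3.05%, interval 1.13 to 6.51%), compared with 26 of the 139 nuclear peaks farther away (18.7%, interval 12.6 to 26.2%). These intervals do not overlap, but they count neighbouring peaks as independent and are too narrow where peaks lie in groups. The contrast was not counted by joined region, so its size per region is unknown. The 6 lay on chromosomes 1, 6, 7, 10 and 20, with 2 of them in a pair on chromosome 20. Of the 26, 12 came from 2 clusters. Without the 3 joined regions with the most overlapped peaks (both clusters and the mitochondrial group), the share farther away was 12.3% (interval 6.88 to 19.7%). These regions were chosen after their overlaps were seen. None lay within 1 Mb of a gap, so the 3.05% beside the gaps could not change. SOX9 peaks were themselves rare beside the gaps. Seen from the SOX9 list, 9 of its 62 peaks within 1 Mb of a gap overlapped an input peak (14.5%, interval 6.86 to 25.8%), against 23 of 7375 nuclear SOX9 peaks farther away (0.312%, interval 0.198 to 0.468%). Of the 9, 4 overlapped the same input peak on chromosome 6 and 2 the pair on chromosome 20. They are thus not independent, and the interval is too narrow.

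By class, 18 of 221 clustered peaks (8.14%, interval 4.90 to 12.6%), 5 of 42 paired peaks (11.9%, interval 3.98 to 25.6%) and 13 of 81 single peaks (16.05%, interval 8.83 to 25.9%) were overlapped. The intervals overlap, and the background share over all members is 10.5%. The clustered peaks concerned came from 5 of the 33 clusters. Without the 3 regions just named, 2 of 188 clustered peaks (1.06%, interval 0.129 to 3.79%) were overlapped. Those regions were picked for their overlap and all are clusters, so this fall followed from the choice. Counted by region, 5 of 33 clusters, 3 of 21 pairs and 13 of 81 single peaks held an overlap. Among single peaks 12 of the 13 overlapped ones lay more than 1 Mb from a gap, where there were 57 single peaks in all.

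**Figure D5:**
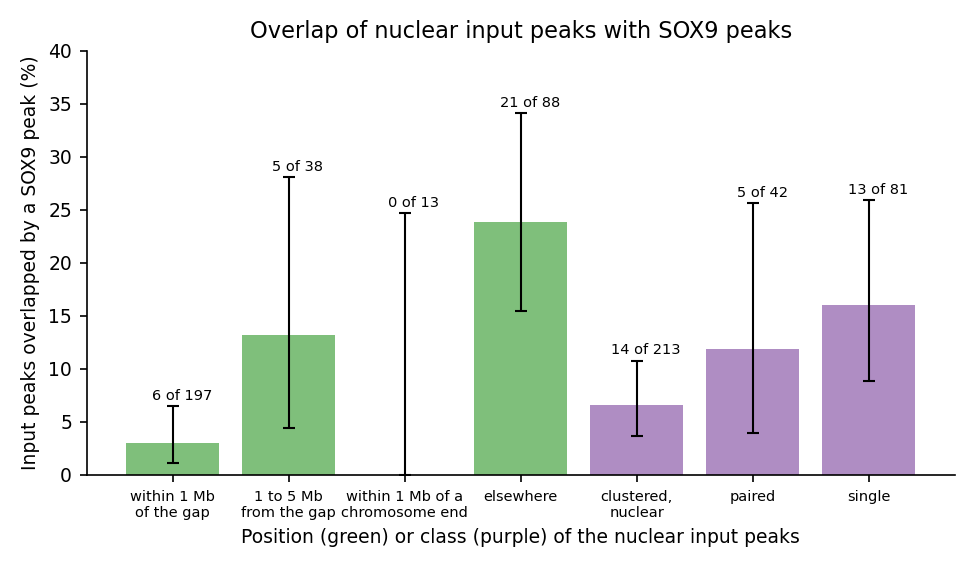
The share of nuclear input peaks overlapped by at least 1 bp of a SOX9 peak (y axis, percent), by position (green) and by class (purple), with exact 95% intervals and the counts above each bar. Peaks within 1 Mb of a gap are at 3.05%, and peaks elsewhere, more than 5 Mb from a gap and 1 Mb from a chromosome end, are at 23.9%.

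The place with the most overlapped input peaks was the cluster of 16 on the long arm of chromosome 2. Between its first and last base lay 12 SOX9 peaks with scores in the SOX9 list from 4.06 to 27.1, and 6 of these overlapped 7 of the input peaks. The strongest SOX9 peak of the place (132746842 to 132747504) did not overlap an input peak, so the lists were interleaved there and did not mark the same bases throughout. The short-arm cluster of chromosome 16 held 7 SOX9 peaks, of which 4 overlapped 5 of its 9 input peaks. Here too the strongest SOX9 peak (33866786 to 33867357, score 30.1 in the SOX9 list) lay between input peaks. In the 7 large clusters within 1 Mb of a gap there was 1 SOX9 peak, on chromosome 10 (41720427 to 41720678, score 6.76).

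Beside the gaps, the strongest SOX9 overlap was on chromosome 20. A pair of input peaks (26136750 to 26137190 and 26137812 to 26138286, with input scores of 15.6 and 57.6) lay wholly inside SOX9 peaks that scored 36.8 and 52.3 in their own list. The latter is the highest score of any SOX9 peak that overlapped a member. On chromosome 1 the 1418 bp input peak beside the gap shared 1238 bp with a SOX9 peak (121185764 to 121187001, score 16.4). On chromosome 6 the widest input peak shared 681 bp with 1 SOX9 peak (58886576 to 58887260, score 10.3), and 3 further SOX9 peaks touched it.

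Of the 57 single peaks more than 1 Mb from a gap, 12 (21.05%) were overlapped, and several of these lay wholly inside a SOX9 peak. Others were covered in part, as on chromosome 3 (75801025 to 75801254, 51.7%) and chromosome 13 (26931646 to 26932089, 60.8%). The peak on chromosome 1 at 154452803 to 154453293, with an input score of 82.6, lay inside a SOX9 peak of score 40.6. The same held for single peaks on chromosome 14 (87307257 to 87307638, input score 73.5, SOX9 score 23.8), chromosome 17 (30502173 to 30502537, input score 63.4, SOX9 score 17.5; 28173635 to 28174040, input score 30.2, SOX9 score 26.5) and chromosome 9 (78376460 to 78376761, input score 45.9, SOX9 score 12.8). The chromosome 11 peak of input score 117 lay inside a SOX9 peak of score 2.28, the lowest of the overlapping SOX9 peaks. The 3 highest single peaks without overlap were those of chromosome 6 and of chromosome 1 at 91625308 and 559662.

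Overlapped input peaks had a higher median score and a greater median width than the others. The 36 overlapped peaks had a median score of 25.5 (interval 15.6 to 42.3) against 14.7 (interval 13.2 to 16.1) for the other 308. Of the 36, 10 (27.8%, interval 14.2 to 45.2%) were among the 34 highest, against 9.88% of all members. The overlapped peaks had a median width of 341 bp (interval 258 to 444 bp) against 208.5 bp (interval 196 to 219 bp) for the others. At the minimum width 0 of 21 peaks was overlapped, against 10.5% of all members, and 21 peaks are too few to tell these apart. The score intervals overlap slightly and the width intervals do not. A wider peak offers more bases to share, and the part of width in the overlap was not tested. SOX9 scores of the overlapping peaks ranged from 2.28 to 52.3 with a median of 10.3, against a median of 7.94 and a maximum of 602 in the SOX9 list.

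On mitochondrial DNA 4 of the 8 input peaks were overlapped by 5 of 8 SOX9 peaks. They included the first input peak, which shared 311 bp with a SOX9 peak of score 13.5, and the last, which shared 637 bp with the highest-scoring mitochondrial SOX9 peak (15883 to 16571, score 19.6). Both lists thus had their strongest mitochondrial peak next to the ends of the numbered circle.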

How the data were processed

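Per the labels' protocols, VCaP chromatin was fixed with formaldehyde and sonicated, and part was kept as input DNA while SOX9 complexes were pulled down from the remainder. Libraries were amplified by PCR and sequenced on an Illumina Genome Analyzer. The submitters' processing notes name genome build hg18 and CASAVA 1.8.2. For the aligner and the peak caller, with its threshold and its use of the input, no source used here gives details. The authors deposited 1 peak list per library, with a position and a score for each peak. The score's scale is not stated and the read depth is unknown.

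The labels assign 1 library to input and 1 to SOX9 ChIP, so the comparisons are descriptions without tests. Starts were converted to 1-based positions. Overlap meant at least 1 bp shared. Centromere gaps, the heterochromatin gaps joined to them on chromosomes 1, 9 and 16, and chromosome lengths of hg18 were entered from general knowledge of the build, since no hg18 file was used, and checked against the lists. Of 7773 nuclear peaks, 0 lay inside a gap and 0 beyond a chromosome end. This check could not reveal a gap entered too small or a chromosome length entered too large. Heterochromatin on chromosome 19 was not entered. Distances run from a gap's edge to the near end of the peak. "Elsewhere" means more than 5 Mb from a gap and more than 1 Mb from a chromosome end. Counting of clusters, overlaps and distances was tested on simulated data. PCR reads are not independent molecules.

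Positions named followed a written rule (clusters of 8 or more peaks, the 10 highest-scoring, 5 widest and 5 highest single peaks, mitochondrial peaks and places of SOX9 overlap); other positions were chosen after their values were seen. The members, definitions and rule were chosen with earlier results of these data known. Alternatives covered cluster gaps, merging, score filters, distances, landmarks and overlap definitions. Computation used scipy 1.17.1, numpy 2.4.6 and pandas 2.3.3 under Python 3.11.15, and plots matplotlib 3.10.9.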

Additional observations from a re-analysis of the deposited data

How the results depend on the processing

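In 39 of 66 recomputations a share kept within its 95% interval, or a count or difference within a factor of 1.5. There were 135 regions after joining over 12.5 kb and 172 peaks at or above the median score, against 344, and joining lowered the shares of chromosomes 2, 10 and 16 to 4.44%, 6.67% and 5.19%. The clustered share of 64.2% became 54.7% when gaps were limited to 5 kb, 55.8% after neighbours within 500 bp were merged and 54.1% at or above the median score. The share beside the gaps was 47.3% within 0.5 Mb, 64.3% within 2 Mb, 69.9% within 5 Mb, 41.8% for joined regions and 50.4% without the 3 largest clusters (added after the data were seen). Measured to the longest peak-free stretch of each chromosome it was 20.5%, but that stretch held the centromere gap on only 9 of 22 chromosomes. The median score of clustered minus single peaks, 0.513, was 0.805 for gaps of at most 5 kb, 0.196 for gaps of at most 25 kb, 0.868 with pairs added to the single peaks and -0.524 without the largest cluster. The width difference of -18 bp was -7.5 bp for gaps of at most 5 kb and -8 bp with pairs added. The share overlapped by SOX9, 10.5%, was 7.27% for SOX9 peaks at or above their median score, 15.1% for input peaks at or above theirs (27.5% of single peaks), 15.6% for joined regions and 6.43% without the 3 regions with the most overlap (added after the data were seen), which also gave 1.06% of clustered peaks and 12.3% of nuclear peaks more than 1 Mb from a gap. Those 3 regions were picked for their overlap, so the lower shares without them are no separate result. No replicate could be left out, since each group has 1 library. For the same reason no paired analysis was possible, and no result comes from a test. Depth is unknown, so no limit of detection can be set.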

Other observations

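Several isolated input regions in the chromosome arms lay close to one another, although more than 12.5 kb apart. Joining the peaks of the arms and ends over gaps of up to 100 kb, a distance chosen after the data were seen, brought together 4 such groups. On chromosome 17, 7 peaks in 4 regions lay within 53.7 kb (42567914 to 42621654), with scores from 12.2 to 46.8 and a median of 32.2, and none was overlapped by a SOX9 peak. A second group on the same chromosome held 3 peaks within 84.6 kb (38737294 to 38821907). Their scores were lower, from 8.95 to 14.5, and 2 of the 3 were overlapped by SOX9 peaks. Chromosome 8 carried 5 peaks within 132 kb (86747130 to 86879109) with scores from 7.80 to 16.1, and the end of chromosome 4 carried 3 within 93.5 kb (191039432 to 191132975) with scores from 4.85 to 8.02. Neither of these groups had an overlapped peak. Over all members 10.5% were overlapped, and 23.9% of those more than 5 Mb from a gap and more than 1 Mb from a chromosome end. Groups of 3 to 7 peaks are too small to tell whether their shares differ from these.

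The share of a cluster's length that its peaks filled varied widely among clusters. For the 20 clusters within 1 Mb of a gap the median was 9.02%, with a range from 2.19 to 46.5%. For the 7 clusters in the arms, more than 5 Mb from a gap and 1 Mb from an end, the median was 56.1% and the range, from 1.95 to 83.0%, overlapped that of the others. The 4 clusters at 1 to 5 Mb ranged from 4.77 to 22.5%. Among the arm clusters, 3 dense ones were chosen as examples after their values were seen. On chromosome 5 a cluster of 3 peaks filled 83.0% of its 1.48 kb (159282295 to 159283774), with scores from 4.28 to 7.57. A chromosome 4 cluster of 5 peaks filled 62.9% of 2.48 kb (67946843 to 67949322), with scores from 3.83 to 80.3. On chromosome 2 a cluster of 4 peaks filled 56.1% of 1.08 kb (161843351 to 161844433) and scored 4.49 to 10.1. The sparsest of the 32 nuclear clusters was likewise in an arm, with 3 peaks over 23.6 kb of chromosome 8 (86855469 to 86879109), and the cluster of 16 on chromosome 2 was filled to 8.99%.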
